A study of Saccharomyces cerevisiae with 119 samples.

Results

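The response of wild yeast to mild ethanol was compared between a strain that lacks the transcription factors Msn2 and Msn4 and its wild-type parent. The libraries were chosen by label: 4 unstressed and 4 ethanol libraries of the YPS606 msn2/4 deletion, and the same of the YPS606 wild type, which makes 16 of the 119 libraries of the series. YPS606 is an oak isolate of Saccharomyces cerevisiae, and both strains are diploid, homozygous and otherwise of the same background. The mutant carries the KanMX cassette in both copies of MSN2 and the HygMX cassette in both copies of MSN4, as 1 constructed strain. All groups grew in rich glucose medium (YPD) at 30 °C. The unstressed sample was taken first. Culture was then added to an equal volume of medium with ethanol, to 5% (v/v), for 30 min. Each ethanol response below therefore also holds this dilution and the added time, which cannot be told apart from ethanol itself. Unstressed and ethanol samples of the same number and genotype came from 1 culture. The p-values below therefore concern 4 cultures of 1 strain per genotype. Their spread was pooled over all 48 libraries of the mutant experiment, with the replicate number as the block in place of the culture.

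Msn2 and Msn4 are related zinc finger activators with overlapping roles. In growing cells, protein kinase A keeps them in the cytoplasm, and after many kinds of stress they enter the nucleus and bind the stress response element, whose core reads AGGGG on one strand and CCCCT on the other. Genes with such elements include those for trehalose, glycogen, catalase and small stress proteins, while ribosome synthesis genes are repressed in the same stresses through other factors.

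The following upstream stretches show the element in the genes on which the comparison turns, with each core in capitals. The bases come from the S288c reference (RefSeq, R64), since the sequence of YPS606 was not used here, and each runs 5′ to 3′ on the strand of its gene. CTT1 encodes the cytosolic catalase, TSL1 a subunit of trehalose synthase, PGM2 phosphoglucomutase, HXK1 hexokinase isoenzyme 1, and HSP12 and DDR2 small stress proteins. ALD6, an acetaldehyde dehydrogenase gene repressed by ethanol, is shown for contrast. HSP82, a gene for the Hsp90 chaperone, is shown too, and its induction was also smaller in the mutant.
CTT1, chrVII:654246-654285, + strand: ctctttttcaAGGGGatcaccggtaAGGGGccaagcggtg
HSP12, chrVI:106811-106893, + strand: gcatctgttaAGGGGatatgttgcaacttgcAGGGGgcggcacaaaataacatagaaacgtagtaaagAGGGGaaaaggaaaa
TSL1, chrXIII:70383-70473, + strand: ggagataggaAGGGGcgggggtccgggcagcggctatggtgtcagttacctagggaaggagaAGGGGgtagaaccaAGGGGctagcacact
DDR2, chrXV:231916-232013, - strand: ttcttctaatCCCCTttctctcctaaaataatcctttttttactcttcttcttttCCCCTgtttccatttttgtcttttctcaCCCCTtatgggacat
HXK1, chrVI:255513-255549, - strand: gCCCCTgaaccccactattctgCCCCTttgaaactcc
PGM2, chrXIII:477808-477921, - strand: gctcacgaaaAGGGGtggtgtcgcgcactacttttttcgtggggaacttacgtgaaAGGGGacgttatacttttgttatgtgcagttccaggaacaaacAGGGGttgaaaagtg
ALD6, chrXVI:432329-432353, + strand: attcggggtgAGGGGgattcaagac
HSP82, chrXVI:98760-98784, - strand: cttccgccacCCCCTaaaacatata

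The 500 bases before the coding start hold 5 cores in HSP12, TSL1 and PGM2, 4 in DDR2, 3 in CTT1 and HXK1, 2 in HSP82 and 1 in ALD6. How common the core is among all genes is given with the classes of response below.

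The 16 libraries held 11910308 to 18253411 counts, and the mean correlation of a library with the others of its group was 0.9905 to 0.9939 on the log scale. MSN2 (YMR037C, chrXIII:344403-346517) had 889 to 1626 counts in the wild-type libraries and 0 to 6 in the mutant. MSN4 (YKL062W, chrXI:323228-325120) had 92 to 261 counts in the wild type and 0 or 1 in the mutant. The genes beside them, MIH1, CCS1, YKL063C and BLI1, had counts in every mutant library, from 37 to 760. In CPM, which are counts scaled to a common library size, the residual MSN2 signal was 0% to 0.564% of the wild-type library of the same number and treatment, and it was highest in unstressed replicate 4. Values in the mutant near that share of a wild-type level, such as those of HSP12 after ethanol, carry this uncertainty, and its part in them was not tested. Of 22 haploid and mating genes written as a check of ploidy, 12 passed the filter on low counts. The summed level of all 22 ran from 45.9 to 60.4 CPM in unstressed wild type and from 50.8 to 59.2 CPM in the unstressed mutant. After ethanol the sums were 115.1 to 125.4 and 99.9 to 122.1 CPM.

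The ethanol treatment moved much of the genome in both genotypes. A gene was called at a false discovery rate of 0.01 with a change of at least 1.5-fold, among 5748 genes tested with edgeR. In the wild type 1646 genes rose and 1663 fell, which is 28.6% and 28.9% of the genes tested. In the msn2/4 mutant 1448 rose and 1495 fell (25.2% and 26.0%). Of the genes induced in the wild type, 1282 were also induced in the mutant, which is 77.9% of the wild-type set and 88.5% of the mutant set. Of the repressed genes 1364 were shared, or 82.0% and 91.2%. The response thus kept its direction in most genes, and the genotypes were next compared gene by gene through the interaction, which is the mutant response minus the wild-type response on the log2 scale.

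The interaction was called for 1012 genes at the false discovery rate alone (17.6%), and for 453 lower (7.88%) and 298 higher genes (5.18%) with the fold limit. Over all genes tested its median was 0.05. The most frequent outcome was defective induction, a rise in the wild type that was smaller in the mutant, in 385 genes, which is 23.4% of those induced in the wild type and 6.7% of all genes tested. Defective repression followed, with 246 genes, 14.8% of those repressed and 4.28% of all. Larger responses than in the wild type were rarer, with 26 genes of amplified induction (1.58% of those induced, 0.452% of all) and 14 of amplified repression (0.842% of those repressed, 0.244% of all).

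**Figure D1:**
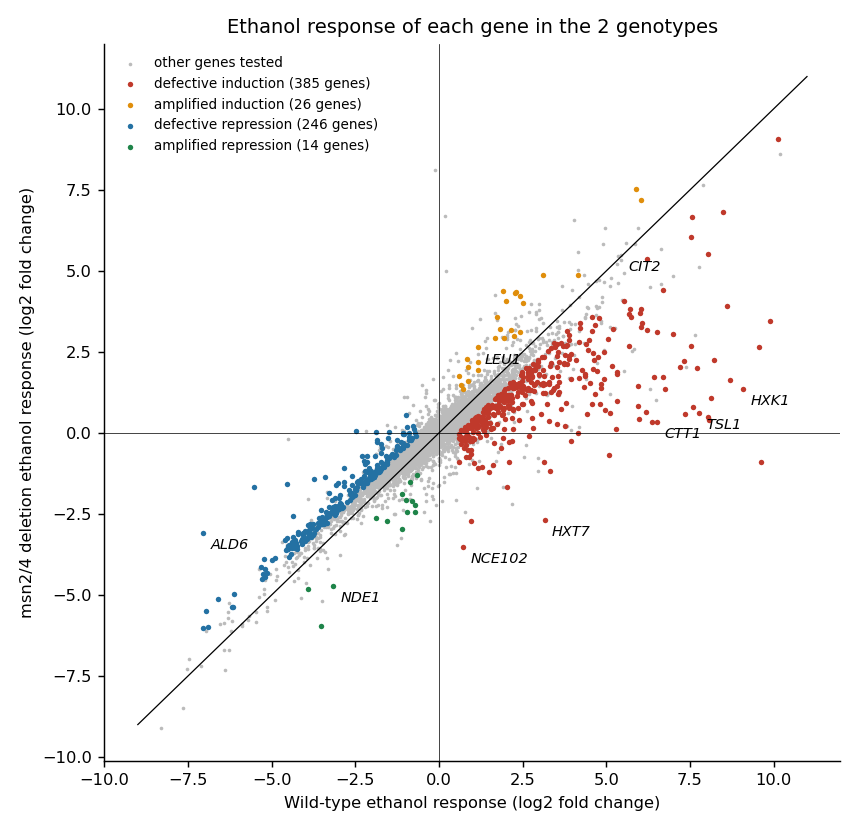
Ethanol response of each of the 5748 genes tested, as log2 fold change in the wild type (horizontal) and in the msn2/4 deletion (vertical), with the line of equal response. The 385 genes of defective induction lie below the line on the right, with CTT1, TSL1 and HXK1 near 0 to 1.4 on the vertical axis, and the 246 genes of defective repression lie above it on the left.

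Defective induction was partial in most genes. Of the 385 genes, 257 were still called induced in the mutant, 115 were not called and 13 were repressed. The median log2 response of the class was 2.40 in the wild type and 1.06 in the mutant. After ethanol 352 of the 385 genes were called lower in the mutant, against 10.3% of all genes tested. Between the unstressed strains 6 of the 385 differed at the false discovery rate, against 13 of all 5748 genes (0.226%). The same libraries also chose the class.

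CTT1 (YGR088W), the catalase gene that the study follows, lost its response. Its level in unstressed wild type was 4.38, 3.80, 4.60 and 5.76 CPM, and 552.4, 387.1, 352.0 and 413.9 CPM after ethanol. The mutant had 4.96, 5.96, 4.92 and 6.15 CPM unstressed, and 6.22, 5.78, 5.75 and 9.89 CPM after ethanol. The mutant ethanol libraries overlapped the unstressed ones of both genotypes and none came near the wild-type ethanol libraries. The log2 response was 6.52 (SE 0.208) in the wild type and 0.33 (SE 0.227, adjusted p = 0.181) in the mutant, a difference of -6.19 (SE 0.307, adjusted p = 1.91e-20).

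The 10 genes of defective induction with the largest differences were DDR2, HXK1, HSP12, RTC3, TSL1, GPH1, EGO4, PGM2, SOL4 and RGI1. HXK1, one of the enzymes that phosphorylate glucose, went from 3.20 to 5.23 CPM in unstressed wild type to 2016 to 2643 CPM after ethanol, but from 1.34 to 3.65 to only 4.84 to 7.24 CPM in the mutant. TSL1 reached 4897, 3930, 3485 and 3174 CPM in the wild type and 19.1, 22.2, 17.9 and 25.8 CPM in the mutant, from unstressed levels of 12.3 to 23.6 CPM in both. The interaction was -7.72 (SE 0.309) for HXK1 and -7.15 (SE 0.237) for TSL1. HSP12, a small membrane-associated stress protein, rose to 658.0, 384.3, 475.9 and 592.0 CPM in the wild type and stood at 1.48, 2.16, 1.89 and 5.12 CPM in the mutant after ethanol. Apart from replicate 4 these values lay within the range of the unstressed mutant libraries, and the interaction of HSP12 was -7.67 (SE 0.447). RGI1, a gene linked to energy metabolism, kept part of its response, at 3.47 in the mutant (SE 0.264) against 9.89 in the wild type (SE 0.234). DDR2, a small stress-responsive gene, had no count in the 4 unstressed wild-type libraries and 110, 94, 101 and 73 counts after ethanol, which is at least 30.8-fold higher when the unstressed libraries are set at 3 counts each. The mutant had 0 to 2 counts of DDR2 in every library, so no fold is given there. The call for DDR2 was lost with the current edgeR method and with several single libraries left out, for example unstressed mutant replicate 1. EGO4, a small protein linked to amino acid signalling, had 0 to 7 counts in the unstressed libraries of both genotypes, 2293 to 3161 in the wild type after ethanol and 16 to 30 in the mutant.

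**Figure D2:**
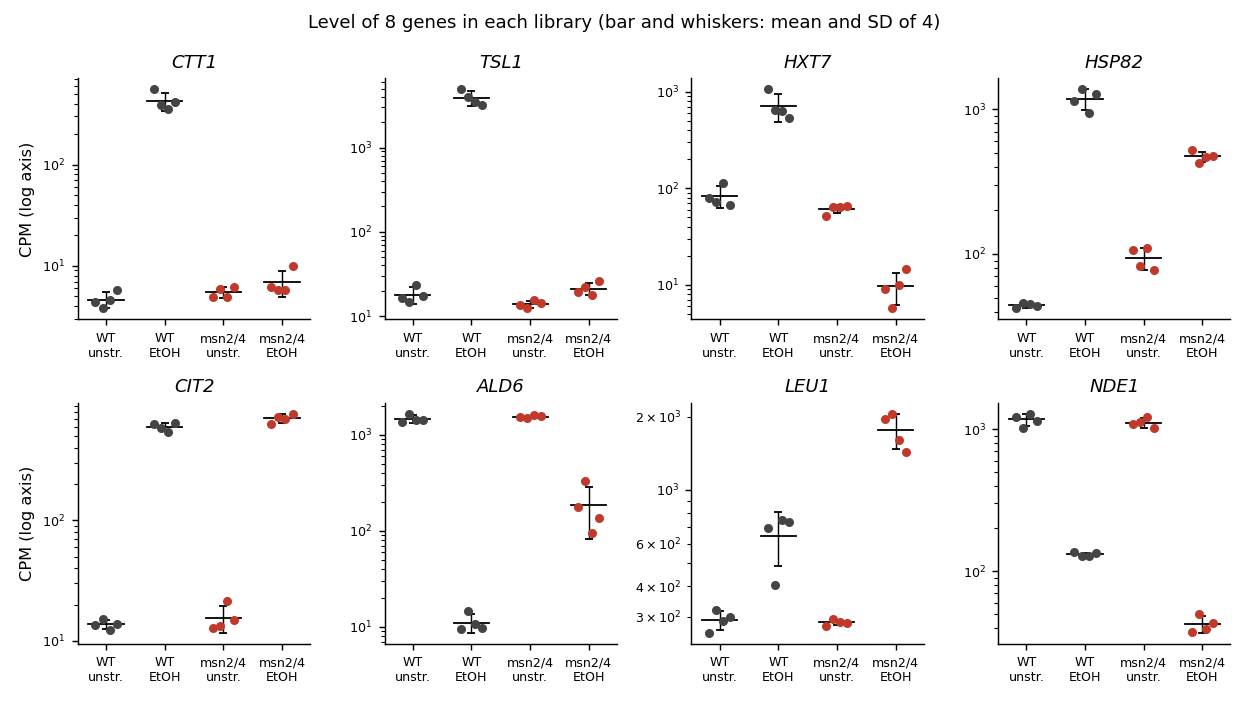
Level of 8 genes in each library in CPM on log axes, with wild-type libraries in grey, mutant libraries in red, and bar and whiskers for the mean and SD of 4. CTT1 and TSL1 stayed near their unstressed level in the mutant, HXT7 fell there, CIT2 rose alike in both genotypes, and ALD6 stayed higher in the mutant after ethanol.

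Trehalose and glycogen are the carbohydrate stores of the yeast cell. All 7 trehalose genes tested were induced in the wild type, against 28.6% of all genes tested. All 7 were also called lower in the mutant response, against 7.88% of all genes, with a median interaction of -2.33. TPS1, the trehalose-6-phosphate synthase, reached 2848 to 3957 CPM in the wild type and 248.8 to 279.3 CPM in the mutant, and its log2 response fell from 5.33 to 1.89 (interaction -3.44, SE 0.156). The phosphatase gene TPS2 differed by -2.33 (SE 0.142) and the regulatory subunit gene TPS3 by -1.76. The genes for trehalose breakdown moved with those for synthesis, NTH1 by -2.88, ATH1 by -1.49 and NTH2 by -1.02. All 7 were still called induced in the mutant, against 25.2% of all genes tested.

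For glycogen, 10 of 15 genes were lower, against 7.88% of all genes tested, with a median of -3.13. The synthase genes GSY1 (-5.97) and GSY2 (-4.85), the branching enzyme GLC3 (-4.51) and the phosphorylase GPH1 (-7.07) were among them, and so were UGP1 (-3.83), which makes UDP-glucose, and the debranching enzyme GDB1 (-1.84). GSY2 rose from 5.93 to 7.07 CPM to 1026 to 1355 CPM in the wild type, and from 3.62 to 5.45 to 28.0 to 34.1 CPM in the mutant. The glycogenin gene GLG2 and the phosphoglucomutase PGM1 had interactions of 0.04 and -0.25 and were not called. The genes called thus included those for making and for degrading the polymer.

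Sugar phosphorylation and lower glycolysis differed in degree. Of 4 hexose kinase genes, HXK1, EMI2 (-3.96) and the glucokinase GLK1 (-1.68, SE 0.243) had lower responses, and HXK2, the isoenzyme of fast growth on glucose, had 0.28 (adjusted p = 0.223). GLK1 still rose strongly in the mutant, from 16.4 to 19.7 CPM to 1681 to 2403 CPM, while the wild type reached 7786 to 10433 CPM. Of 19 glycolysis genes 4 were lower, the pyruvate kinase isoenzyme PYK2 (-3.40), TDH1 (-1.07), PFK26 (-0.84) and FBP26 (-0.65), and the list median was -0.20. TDH1 is close in sequence to TDH2 and TDH3, so the split of reads among them is uncertain, and its call was lost without replicate 1 or 3 (-1.05 and -1.13). ENO1, an enolase, had log2 responses of 7.89 and 7.66 with a 95% interval of the difference from -0.70 to 0.25. In the pentose phosphate list 2 of 11 were lower, against 7.88% of all genes tested, SOL4 (-6.79) and TKL2 (-2.98), and their close relatives SOL3 (0.04) and TKL1 (0.07) were not called.

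**Figure D3:**
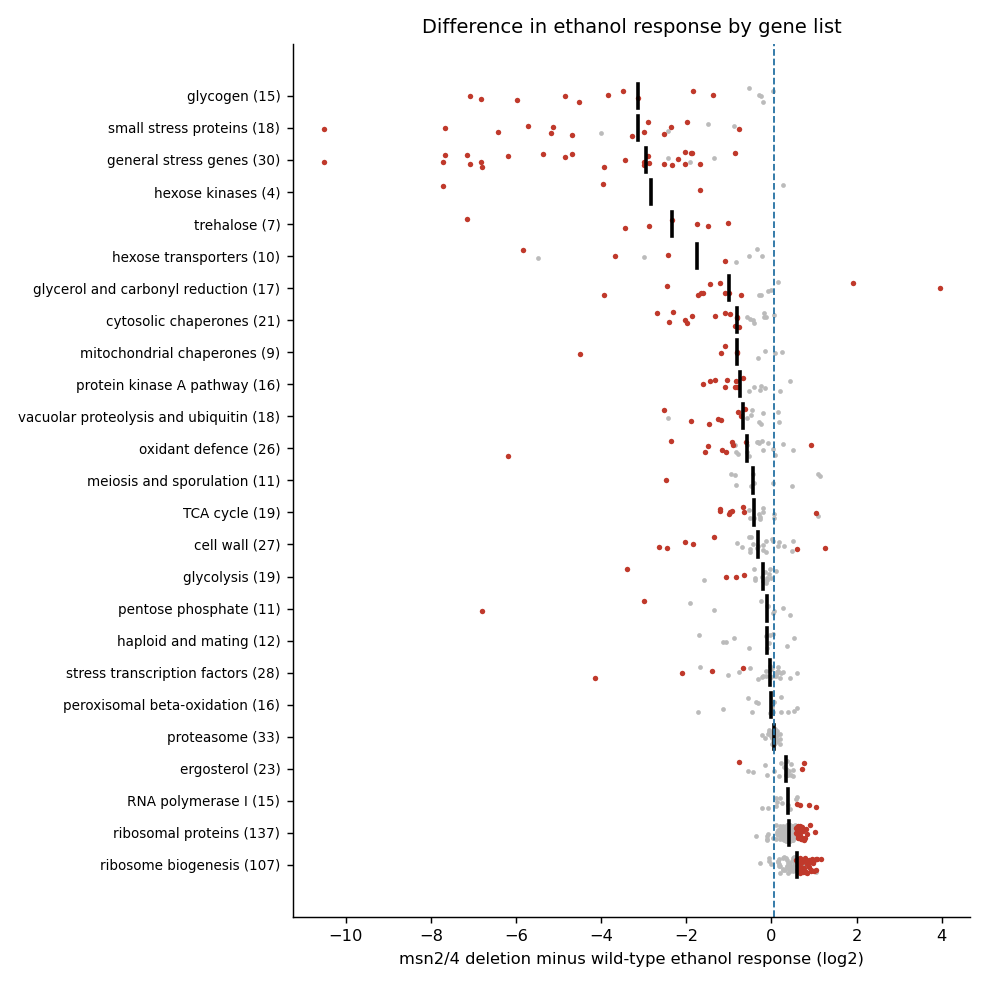
Interaction of each tested member of 25 gene lists (number tested in brackets) on the log2 scale, with called members in red, others in grey, a black bar for the list median and a dashed line for the median of all genes, 0.05. The medians of the glycogen, small stress protein, general stress and hexose kinase genes lie furthest to the left, the proteasome sits on the line, and ribosomal protein and ribosome biogenesis genes lie to the right. The fitted value of DDR2 at the far left depends on the prior count.

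Small stress proteins and chaperones were lower by different amounts. Over all genes tested 28.6% were induced in the wild type, 25.2% were induced in the mutant and 7.88% had a lower response. Of 19 genes written for small stress proteins, 18 were tested, all 18 were induced in the wild type, 11 in the mutant, and 14 had a lower response. The median interaction was -3.13, also with DDR2 set at its bound. HSP26, a small heat shock protein, reached 574.4 to 724.4 CPM in the wild type and 31.7 to 39.5 CPM in the mutant (interaction -4.68, SE 0.289), and it was still induced there by 3.92. The disaggregase gene HSP104 differed by -2.03. Of 21 cytosolic chaperone genes 13 were lower, with a median of -0.81, and they included the Hsp70 genes SSA1 (-1.99), SSA3 (-1.87) and SSA4 (-0.86), HSP82 (-2.41) and the Hsp40 gene SIS1 (-2.30). SSA4 still reached 2119 to 2551 CPM in the mutant after ethanol against 3445 to 4223 CPM in the wild type, and the Hsp70 genes share sequence, so reads may be split among them. In mitochondria 5 of 9 were lower, led by HSP78 (-4.49, SE 0.224), with HSP60 at -0.81 and HSP10 at -0.80.

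Part of the chaperone difference lay in the unstressed cells. HSP82 stood at 42.1, 45.9, 45.1 and 43.5 CPM in unstressed wild type and at 105.7, 83.2, 109.2 and 77.5 CPM in the unstressed mutant, without overlap. After ethanol the order was turned, with 942.5 to 1373 CPM in the wild type and 427.9 to 521.9 CPM in the mutant. The mutant was thus higher by 1.08 (SE 0.164, adjusted p = 9.07e-05) before ethanol and lower by 1.34 (log2 -1.34, SE 0.155) after it. HSP78 was likewise higher by 1.08 (SE 0.174) before and lower afterwards (log2 -3.41). STI1 and AHA1, cochaperones of Hsp90, were higher in the unstressed mutant by 0.60 and 0.52. Over the 21 cytosolic chaperones the median unstressed difference was 0.24, against -0.0036 over all genes.

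These 4 chaperone genes were among 13 genes that differed between the unstressed strains at the false discovery rate (0.226% of the genes tested). With the fold limit 3 were higher (0.0522%) and 9 lower (0.157%). The count of 9 fell to 3 without unstressed wild-type replicate 1, to 4 without unstressed mutant replicate 1 or 4 and to 5 without unstressed mutant replicate 3. MSN2 and MSN4 themselves were among them. The others were lower in the mutant, namely the flocculin genes FLO11 (-1.54, SE 0.249) and FLO9 (-0.92), PRM7 (-1.47) with its neighbour BSC1 (-1.15), the ceramidase YPC1 (-1.09), EMI2 (-0.74) and YAL065C, which had no count in the 4 unstressed mutant libraries. FLO9 and other flocculin genes share repeats, so their reads may be misassigned. FLO11 also varied widely in unstressed wild type, at 60.1, 20.5, 27.2 and 55.6 CPM, against 13.3 to 14.8 CPM in the mutant.

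Enzymes that handle oxidants and glycerol were lower in part. For comparison, 7.88% of all genes tested had a lower and 5.18% a higher response. Of 26 oxidant defence genes 9 were lower and 1 higher, and after CTT1 the largest differences were in the mitochondrial peroxiredoxin PRX1 (-2.36, SE 0.165), the glutaredoxins GRX1 (-1.57) and GRX2 (-1.48) and the mitochondrial superoxide dismutase SOD2 (-1.16). The thioredoxin reductase TRR1 (-0.32), the peroxiredoxin TSA1 (-0.22) and the glutathione synthetase GSH2 (0.04) were not called. In glycerol and carbonyl metabolism 10 of 17 tested genes were lower and 2 higher. GPD1, the first enzyme of glycerol synthesis, rose by 4.41 in the wild type and 2.76 in the mutant (interaction -1.65, SE 0.211), the aldose reductase GRE3 differed by -2.45, and the phosphatase GPP1 had 0.16 (adjusted p = 0.385). The 2 higher genes were ALD5 and ALD6, described with repression below. In the TCA cycle 7 of 19 were lower, among them MDH1 (-1.22), SDH4 (-1.21) and KGD1 (-0.93).

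In the protein kinase A pathway, which restrains Msn2 and Msn4 in growing cells, 9 of 16 genes were lower, with a median of -0.74. YAK1, a kinase that opposes the pathway (-1.60), RAS2 (-1.34), the adenylate cyclase CYR1 (-1.09) and the regulatory subunit BCY1 (-0.81) were lower, which are genes of both positive and negative roles. The catalytic subunit gene TPK3 (0.43) and the exchange factor gene CDC25 (0.21) were not called. Of 28 stress transcription factor genes 4 were lower, against 7.88% of all genes tested, and the list median was -0.03. USV1, a zinc finger factor, had 34.1, 33.4, 27.9 and 19.6 CPM in wild type after ethanol and 1.27 to 2.37 CPM in the mutant, and its mutant response was -0.00 (SE 0.272). ADR1, an activator of alcohol and fatty acid use (-2.09), CIN5 (-1.39) and RPH1 (-0.66) were the others, while HSF1, YAP1 and SKN7 had -0.12, 0.02 and 0.12 and were not called.

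In 13 genes the direction turned, from induced in the wild type to repressed in the mutant. They were NCE102, PNS1, HXT7, HXT4, EIS1, TLD1, YLR152C, MTH1, BDH1, PMP3, YOR1, CSH1 and INH1. NCE102, a plasma membrane protein of eisosomes, went from 231.1 to 307.2 CPM to 375.8 to 476.6 CPM in the wild type, and from 239.0 to 285.5 CPM to 18.9 to 25.8 CPM in the mutant. The response was 0.72 (SE 0.114) in one genotype and -3.52 (SE 0.120) in the other, with the same unstressed level. EIS1, another eisosome component, turned from 1.51 to -1.20. HXT7, a high-affinity glucose transporter, rose from 67.8 to 114.3 CPM to 537.7 to 1063 CPM in the wild type and fell from 52.0 to 66.1 CPM to 5.71 to 14.5 CPM in the mutant. MTH1, a corepressor of HXT genes, was also among those that turned.

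Of 10 hexose transporter genes tested, 4 were called lower, against 7.88% of all genes tested, namely HXT7 (-5.83), HXT4 (-3.68), HXT3 (-2.44) and HXT5 (-1.08). The list median was -1.76, and it was -1.08 without GAL2, which had no count in unstressed wild type. The HXT genes are close paralogs, HXT6 and HXT7 nearly identical, so the counting could split their reads. HXT3, a low-affinity transporter, fell in both genotypes, from 1344 to 1841 CPM to 111.5 to 172.7 CPM in the wild type and from 1318 to 1582 CPM to 15.3 to 37.9 CPM in the mutant.

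A large set of induced genes responded to a similar degree in both genotypes. For 560 genes induced in the wild type the 95% interval of the interaction lay within 1.5-fold in both directions, and 38 of these were induced 4-fold or more. CIT2, the peroxisomal citrate synthase, had the largest wild-type response among those named by the rule. It rose from 12.4 to 15.1 CPM to 543.2 to 638.9 CPM in the wild type and from 12.8 to 21.2 CPM to 626.5 to 769.0 CPM in the mutant, with overlapping ranges at both states. The interaction was 0.06 with an interval from -0.25 to 0.37. SPO24 (-0.09), FPT1 (0.12), the arginine synthesis gene ARG4 (-0.06), URH1 (-0.06) and the disulfide isomerase MPD1 (-0.32) followed. Such an interval bounds the difference and does not show that the responses were equal. MPD1 after ethanol had 254.3 to 265.9 CPM in the wild type and 170.8 to 186.2 CPM in the mutant, without overlap. In the proteasome list 28 of 33 genes were induced in the wild type and 31 in the mutant. Over all genes tested the shares were 28.6% and 25.2%. None of the 33 was called for the interaction in edgeR or DESeq2, and 0 had an unadjusted p under 0.05. Their interaction values lay between -0.21 and 0.21. PRE1, a core subunit, reached 178.4 to 209.9 and 201.8 to 230.6 CPM. None of the 16 peroxisomal beta-oxidation genes was called with the fold limit in edgeR or DESeq2 (2 had an unadjusted p under 0.05), and their median was 0.0013, although single values reached -1.72 (MLS1, adjusted p = 0.0973).

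Repression was weaker for 246 genes. In 212 of them the mutant still repressed the gene, in 34 the mutant response was not called, and the median log2 response moved from -2.66 to -1.72. After ethanol 206 of the 246 were higher in the mutant, against 6.14% of all genes tested, in the libraries that also chose the class. Of 107 ribosome biogenesis genes, all 107 were repressed in the wild type and 105 in the mutant, against 28.9% and 26.0% of all genes. Of the 107, 44 had a higher response against 5.18% of all genes, and the list median of the interaction was 0.61. ARX1, a factor of large subunit export, fell from 471.7 to 521.8 CPM to 20.1 to 27.0 CPM in the wild type and from 447.0 to 470.3 CPM to 37.6 to 46.6 CPM in the mutant. The groups did not overlap after ethanol, and the interaction was 0.93 (SE 0.116). The RNA helicase gene DBP2 was among those that were not called, with -6.43 and -6.70 (interval of the difference from -0.69 to 0.15). Of 15 RNA polymerase I genes 4 were higher, RPA43 (1.05), RPA135 (0.87), RPA190 (0.66) and RPA49 (0.61), the last of which was no longer called with any of several libraries left out, for example wild-type ethanol replicate 2 (0.53).

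Ribosomal protein genes moved by less. Of 137 tested, 131 were repressed in each genotype, against 28.9% of all genes in the wild type and 26.0% in the mutant. Of the 137, 31 had a higher response, against 5.18% of all genes. The list median of the interaction was 0.42. RPL8A fell to 210.4 to 302.2 CPM in the wild type and 392.8 to 460.2 CPM in the mutant, from about the same unstressed range (interaction 0.73, SE 0.136). Many of these genes are near-identical pairs, so single members are uncertain. The summed CPM of the list after ethanol was 78560 to 96050 in the wild type and 96460 to 116300 in the mutant. CPM are relative to the scaled library total, so a change in RNA per cell cannot be told apart from a change in share, and this holds for all levels given.

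The 5 genes of defective repression named by size of the difference were ALD6, SFG1, FET4, PRM7 and ALD5. ALD6 fell from 1357 to 1658 CPM to 9.43, 14.6, 10.6 and 9.71 CPM in the wild type, and from 1488 to 1590 CPM to 177.3, 329.1, 94.6 and 137.7 CPM in the mutant. Every mutant ethanol library was above every wild-type one, and the log2 response was -7.04 (SE 0.248) against -3.09 (SE 0.220), a difference of 3.95 (SE 0.332). ALD5, a mitochondrial aldehyde dehydrogenase, fell by 1.88 in the wild type and had 0.05 (SE 0.134) in the mutant. SFG1, a regulator of growth form, fell from 59.1 to 74.3 CPM to 0.985 to 2.16 CPM in the wild type and from 68.6 to 77.4 CPM to 18.9 to 27.4 CPM in the mutant (interaction 3.84, SE 0.253). FET4, a low-affinity iron transporter, responded by -3.73 and -1.43. PRM7 differed by 2.07, but its mutant level was already lower before ethanol and its wild-type response was -3.41 here and -0.42 in the other set of YPS606 libraries described below.

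Responses larger than in the wild type were found in few genes. Among amplified inductions, SIP4, an activator of gluconeogenesis genes, reached 5.58, 10.8, 9.56 and 8.21 CPM in the wild type and at most 20.3 CPM in the mutant, where every library was above the wild-type ones (interaction 1.79, SE 0.481, adjusted p = 0.00322), a call that was lost without unstressed wild-type replicate 4 (1.37). BOP2 reached 63.1 to 82.1 and 147.6 to 183.4 CPM (1.63, SE 0.384). LEU1, of leucine synthesis, reached 405.3 to 751.0 CPM and 1434 to 2059 CPM (1.49, SE 0.237), and DIC1 of mitochondrial transport (1.44) and PDH1 of propionate use, with responses of 2.52 and 4.02, were the other named genes. The call for PDH1 was lost without unstressed wild-type replicate 1 (1.26), and that for DIC1 without replicate 2 (1.11). Among amplified repressions NDE1, an external NADH dehydrogenase of mitochondria, fell to 127.9 to 135.5 CPM in the wild type and 37.1 to 49.8 CPM in the mutant (-1.56, SE 0.160), beside HXT3, HPF1 (-1.87) and COS111 (-1.73).

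Other genes differed although the wild type was not called. A lower response was found in 54 of 2439 such genes (2.21%, or 0.939% of all genes tested), and 36 of those were repressed in the mutant. MRH1, a plasma membrane protein, which was also lower in the unstressed mutant without a call (-0.52), fell from 125.8 to 176.9 CPM to 30.7 to 43.9 CPM in the mutant while the wild type had 204.0 to 244.5 and 290.9 to 363.5 CPM, a difference of -2.57 (SE 0.218). The cell wall mannoprotein gene CWP1 differed by -2.44 (SE 0.270) and the mannosylation gene MNN4 by -2.20. A higher response was found in 26 (1.07%, or 0.452% of all), including MET6, the methionine synthase, which rose from 88.2 to 108.0 CPM to 355.7 to 746.6 CPM in the mutant and to 104.2 to 143.7 CPM in the wild type (1.97, SE 0.295). The regulators RPI1 (2.04, SE 0.547) and TEC1 (1.53, SE 0.210) were also higher, RPI1 from low counts and without a call when wild-type ethanol replicate 1 was left out (1.78).

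The wild-type response enters both the classes and the interaction, so the size of response was taken from a second set of libraries that the interaction did not use. These were 3 unstressed and 3 ethanol libraries of YPS606 from the comparison of strains. Of the 158 genes induced 16-fold or more there, 55.1% were called lower in the mutant, of the 426 induced 4- to 16-fold 37.6%, of the 669 induced 2- to 4-fold 15.8%, and of the 466 induced 1.5- to 2-fold 7.94%. On the repressed side the share called higher ran from 47.1% of 191 genes at 16-fold or more through 25.2% of 369 and 8.53% of 680 to 1.99% of 453. The share of genes called thus followed the size of the independent response on both sides, though strong responses also leave more room for a called difference.

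**Figure D4:**
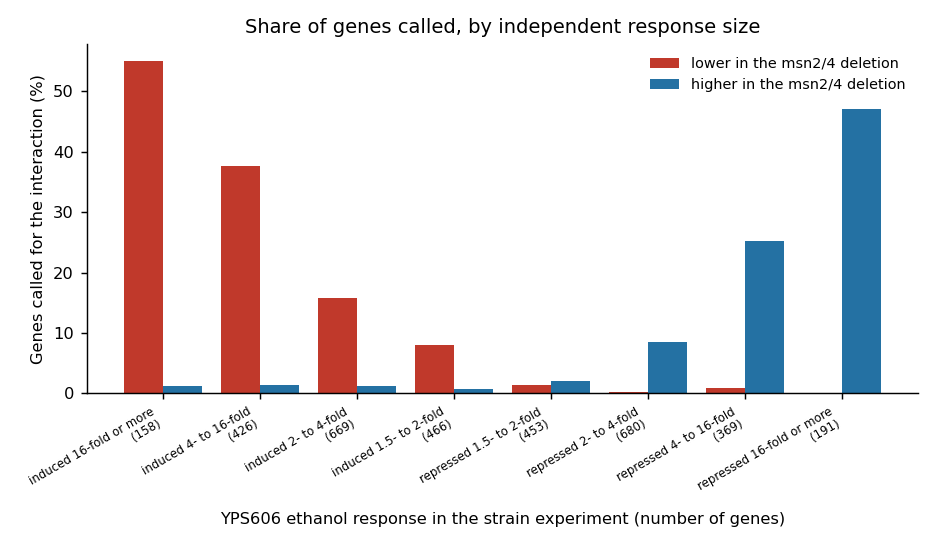
Percent of genes called lower (red) or higher (blue) in the mutant response, for genes grouped by the ethanol response of YPS606 in the separate strain experiment, with the number of genes in brackets. Red bars fall from 55.1% to 7.94% over the induced groups, and blue bars climb from 1.99% to 47.1% over the repressed groups.

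In the same separate libraries 370 of the 385 genes of defective induction were called induced, and 238 of the 246 genes of defective repression were called repressed. The smaller classes held less well, with 17 of 26 genes of amplified induction called induced and 2 called repressed, and 7 of 14 genes of amplified repression called repressed. LEU1 responded by -1.70 there against 1.16 in the wild type of the mutant experiment, and MET6 by -3.01 against 0.51, so the wild-type response of these biosynthetic genes had opposite signs in the sets. The difference between the sets was not tested.

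The core of the stress response element was searched as AGGGG on either strand in the 500 bases before the coding start, and was found at least once in 34.1% of 6006 genes. It was present in 75.3% of 380 genes of defective induction with an annotated upstream window, in 43.4% of 1189 genes induced in the wild type without a called difference, and in 21.1% of 242 genes of defective repression. Within defective induction the share was 91.7% of 36 genes with a difference of 16-fold or more, 85.7% of 63 with 4- to 16-fold and 70.8% of 281 below 4-fold. Of the genes named, HSP12, TSL1 and PGM2 have 5 cores each, as printed in part above, and TPS1 has 6. MRH1 has none although its response was lower, and the same holds for other genes named, among them HXT4, SIS1, ADR1 and SSA3. CIT2 has 1 core and SPO24 has 3, and both responded alike in the genotypes.

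**Figure D5:**
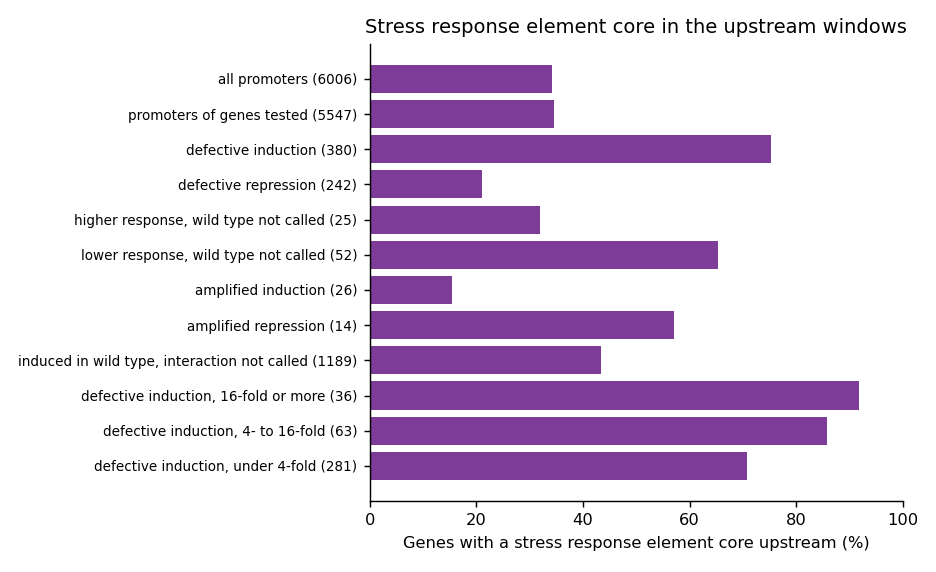
Percent of genes with at least 1 stress response element core in the 500 bases before the coding start, by class of response, with the number of genes that have such a window in brackets. The share is 75.3% in defective induction and 91.7% among its largest differences, against 34.1% of all genes and 21.1% in defective repression.

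Other elements were distributed differently. The PAC element, GCGATGAG on either strand, which is known from ribosome synthesis genes, was found in 26.0% of the genes of defective repression, 1.58% of those of defective induction and 4.83% of all genes. The heat shock element core GAANNTTC was found in 20.5% of defective induction against 19.2% of all, and the Yap1 site TTACTAA in 14.5% against 11.8%. The matches are letters in the S288c sequence and do not show binding.

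The effect of the deletion was then compared between ethanol and salt (NaCl), with the unstressed libraries cancelling out. Over all genes 312 had a lower and 413 a higher value in ethanol than in salt (5.43% and 7.19% of the genes tested). Of the 385 genes of defective induction 170 were lower and 9 higher, and of the 246 of defective repression 199 were higher. These classes were chosen on the ethanol libraries, so the counts describe them and are not independent evidence. For CTT1 the effect in ethanol was lower than in salt by a log2 value of -3.77 (SE 0.243), for HSP12 by -6.86 and for TSL1 by -2.92. GLK1 and ENO1 went the other way, with 1.61 and 0.90, so the deletion lowered them more in salt. HXK1, GSY2, HXT7 and USV1 were not called in this contrast.

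The response of the msn2/4 mutant was also set against those of the skn7 and yap1 deletions, which lack other stress regulators, without use of the wild type. Compared with the skn7 deletion 349 genes were lower and 212 higher (6.07% and 3.69%), and compared with the yap1 deletion 665 and 467 (11.6% and 8.12%). Of the 385 genes of defective induction 232 were lower than in skn7 and 342 lower than in yap1, and of the 246 of defective repression 70 and 162 were higher. The classes come from the same mutant libraries, so these counts are descriptions too.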

How the data were processed

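RNA was sequenced from 48 libraries of the mutant experiment, of which 16 are compared here. The authors trimmed reads with Trimmomatic, mapped them with STAR 2.6.1 to strain-specific references built with Bowtie2 2.3.4.1 and GATK from the yeast reference (builds sacCer3 and R64 in the submitters' notes), and deposited RSEM 1.3.1 expected counts per gene, not normalized. Expected counts are estimates that need not be whole and were rounded here. The table held 6685 genes, and 0 of its columns were left without a sample.

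The 5748 genes that averaged 1 CPM or more in some group were tested with edgeR 4.0.16 in R 4.3.3. The test was the quasi-likelihood F test in its older (legacy) form, with TMM factors and Benjamini-Hochberg adjustment. It used all 48 libraries and 12 groups, with the replicate number as a block, as in the study. Standard errors and 95% intervals came from the fit. CPM are counts divided by the TMM-scaled library total. On simulated counts with 200 changed genes among 5735 the interaction test recovered 169 with 3 false calls (79% at 2-fold, 90% at 4-fold). The replicate number marks library construction and sequencing lane in the study's methods. Deviations from group means correlated at 0.106 within a culture, 0.0554 between genotypes of the same number and -0.024 otherwise.

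Classes, gene lists and members were chosen with earlier results of these data known. Genes were named by rank: 10 of defective induction, 5 of amplified induction, 5 of defective repression, 4 of amplified repression, 3 in each direction where the wild type was not called, and the 6 most induced with an interval within 1.5-fold, each with at least 50 mean counts in a group, and per list the 4 with the smallest p and 2 that were not called. Other genes were named for their role after their values were seen, and the results of some genes are not reported here. Upstream sequence came from RefSeq R64. Alternatives were other normalization, filters, tools, limits, blocks and left-out libraries. The counts behind a library limit its precision, and floors of 3 counts cover counting error only.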

Additional observations from a re-analysis of the deposited data

Results flagged for a closer look

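Among 31 genes with values by library, 9 of 124 groups had 1 library far from the other 3, measured as its gap to the nearest library divided by the range of the group, and chance gives about 1 in 20. In the mutant these were CTT1 in ethanol replicate 4 (0.886), RGI1 in unstressed replicate 3 (0.872), HXT7 in unstressed replicate 1 (0.851) and SIP4 in unstressed replicate 2 (0.982). In the wild type they were GLK1 in ethanol replicate 1 (0.83), HSP78 in unstressed replicate 3 (0.857), SSA4 in unstressed replicate 3 (0.914) and in ethanol replicate 3 (0.867), and LEU1 in ethanol replicate 2 (0.84).

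The effect of the deletion differed between ethanol and salt in 22 of the same 31 genes, by the edgeR contrast of the treatments. The treatments also differ in time of exposure. Over all genes tested 5.43% were lower and 7.19% higher in this contrast. Many of the 31 genes were named for their difference in ethanol, and the same ethanol libraries enter here. The count is therefore a description and not independent evidence. The log2 difference, ethanol minus salt, was below 0, a lower value in ethanol, for CTT1 (-3.77), HSP12 (-6.86), TSL1 (-2.92), PGM2 (-1.97), RGI1 (-3.74), TPS1 (-0.97), NCE102 (-3.38), HSP82 (-0.91), HSP78 (-1.80), HXT3 (-1.28), NDE1 (-1.34), MRH1 (-1.12) and CWP1 (-1.69). It was above 0 for GLK1 (1.61), ENO1 (0.90), BOP2 (0.92), MET6 (1.25), ALD6 (1.92), ALD5 (1.34), SFG1 (3.04), ARX1 (1.25) and RPL8A (0.59).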

How the results depend on the processing

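Of 677 repeats of the counts of calls and of the CTT1 difference under other settings, 652 stayed within 1.5 times the reported count and 25 did not. Of 5090 repeats for single genes 68 lost a call and 34 gained one. No called difference changed sign, while values near 0 that were not called, such as that of CIT2, did. Without the replicate block defective induction held 373 genes, 370 of them shared, and defective repression 233, with 232 shared. DESeq2 gave 405 (380 shared) and 265 (245 shared). The current edgeR method gave 371 (370 shared) and 246 (242 shared). A block for each culture gave 386 (377 shared) and 249 (240 shared). At a false discovery rate of 0.05 the unstressed strains differed in 5 higher and 14 lower genes. With a 2-fold limit 893 genes were induced in the mutant, 89 were higher and 335 lower after ethanol, 138 higher and 160 lower in ethanol against salt, 84 higher and 215 lower against skn7, and 172 higher and 400 lower against yap1. The same limit left 210 genes of defective and 15 of amplified induction, 58 of defective and 4 of amplified repression, and 15 with a higher response where the wild type was not called. Leaving out libraries gave 1 to 3 higher and 3 to 12 lower genes between the unstressed strains, the fewest lower genes without unstressed wild-type replicate 1 (3), 320 to 399 genes of defective induction, 165 to 274 of defective repression and a CTT1 difference of -6.49 to -5.99. Depth limits genes such as DDR2, RPI1 and SIP4, which had few counts in the unstressed libraries.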
